A study of Homo sapiens with 6 samples.

Results

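The D-type cyclins, their kinase partners and the MYC family were followed on 6 single-colour expression arrays of HEK293, an established human embryonic kidney line. The set comprised CCND1, CCND2, CCND3, CDK4, CDK6, MYC, MYCN, MYCL1 (now MYCL) and MAX. Every probe set whose annotated gene name was one of these 9 genes, or another symbol of the same Entrez gene, was taken, which gave 25 of the 45033 probe sets on the array, or 9 of its 23596 named genes. Each gene had 1 to 8 probe sets, and the one with the highest mean over the 6 arrays is called its main probe set. The arrays fell into 3 groups of 2. All cells had been transfected with an shRNA for about 40 hours (the series text also calls it an siRNA) and then given conditioned medium for 7 hours. The control shRNA was combined with control medium in the first group and with Wnt3a medium in the second, and the third group received the SET8 shRNA and Wnt3a medium. No array of SET8 shRNA cells in control medium is analysed here, and the Wnt3a response could therefore not be compared between the shRNAs. The labels do not tell whether replicates were separate cultures; the p-values reflect the array-to-array spread within groups, which could be technical.

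Cyclins D1, D2 and D3 bind the kinases CDK4 and CDK6, and the active pairs phosphorylate the retinoblastoma protein, which releases E2F factors and lets cells pass from G1 into S phase. MYC, N-MYC and L-MYC are transcription factors that bind DNA as partners of MAX, mostly at the E-box, and drive growth and ribosome synthesis. CCND1 and MYC are widely described targets of beta-catenin and TCF factors in Wnt-responsive cells, and SET8, the product of KMT5A, places a single methyl group on a lysine of histone H4.

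Values are log2 of the deposited intensity, and differences between groups are log2 fold changes with the moderated standard error (SE) of limma. A call is a limma p-value under 0.05 after Benjamini-Hochberg adjustment over the 23808 probe sets bright enough to test. Replicate arrays correlated at 0.955 to 0.978 across probe sets. The gene targeted by the shRNA, KMT5A, read 8.97 and 9.65 on the SET8 shRNA arrays against 10.53 to 11.20 on the 4 control shRNA arrays. The Wnt3a medium arrays had higher values than both control medium arrays for AXIN2, NKD1, SP5, DKK1 and LEF1, all feedback or target genes of the pathway, with differences of 1.07 to 2.79. None of these was called for Wnt3a medium, with limma adjusted p-values from 0.091 for NKD1 to 0.999994 for AXIN2 and LEF1. SP5 and DKK1 were below the array median on both control medium arrays and passed the filter only through the arrays with Wnt3a medium. KMT5A was not called between the shRNAs (adjusted p = 0.24 in limma). A missing call therefore does not show that a gene was unchanged. Of 6 genes taken as markers of HEK293 cells, 5 (KRT8, KRT18, VIM, CDH2 and LHX1) were above the array median on all 6 arrays. PAX2, a kidney transcription factor, was above it on 2.

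The gene of the set with the clearest difference was CDK6, which was higher with SET8 shRNA on both of its probe sets, by 2.86-fold and 3.28-fold. The D-type cyclins, CDK4, MYC, MYCN and MAX differed by less than 2 SE in every comparison on their main probe sets, and MYCL was 1.50-fold higher in Wnt3a medium and 1.47-fold lower again with SET8 shRNA, each about 2 SE on its main probe set. None of these differences was called. All 25 probe sets passed the brightness filter, with values from 7.23 to 14.82, where the random-sequence control probes read 4.66 to 4.84.

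**Figure D1:**
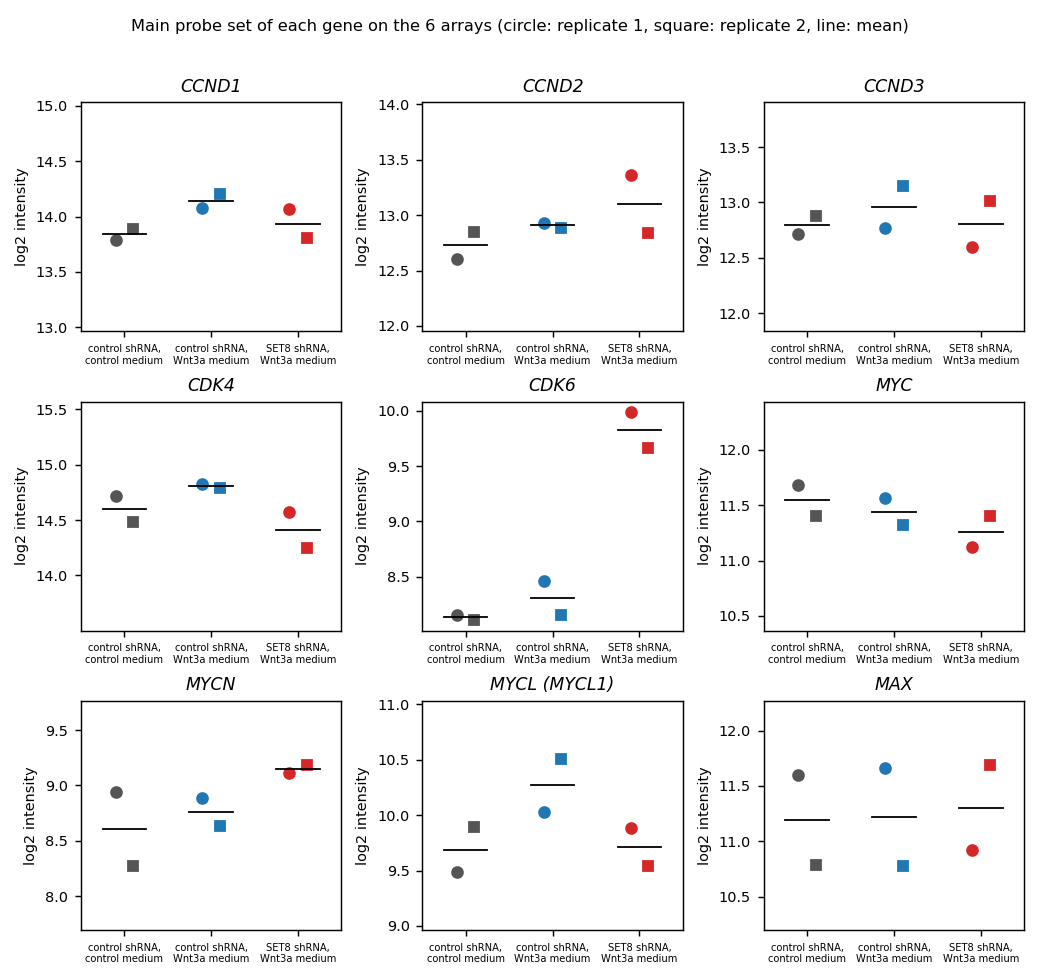
Log2 intensity (vertical axes, each spanning the same range) of the main probe set of the 9 genes in the 3 groups. Circles are replicate 1, squares replicate 2 and lines the mean of 2 arrays; both SET8 shRNA arrays of CDK6 (9.99 and 9.66) lie above the 4 control shRNA arrays (8.11 to 8.46), while the groups of MAX overlap.

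CDK6, one of the kinases that D-type cyclins activate, lies on the minus strand of chromosome 7, where its probe set transcripts span 92081716 to 92301148 and 92072170 to 92301148 (hg18). From the RefSeq promoter table (GRCh38.p14) 10 windows of 6 of the 9 genes were taken. Each ran from 250 bases before to 50 bases after a start site. CCND1 and CCND2 had no entry, and MYC was left out of the search. The windows were searched on both strands for the E-box CACGTG, for the E2F letters TTTCGCGC and TTTGGCGC, and for the TCF/LEF letters CTTTGAT and CTTTGAA. Both CDK6 windows are shown because CDK6 carries the main difference, and CDK4 because it is the paired kinase. MYCN is shown because, of the genes searched, it alone held E2F and TCF/LEF letters. Capitals mark the motif letters.
CDK6, chr7:92836524-92836823, minus strand: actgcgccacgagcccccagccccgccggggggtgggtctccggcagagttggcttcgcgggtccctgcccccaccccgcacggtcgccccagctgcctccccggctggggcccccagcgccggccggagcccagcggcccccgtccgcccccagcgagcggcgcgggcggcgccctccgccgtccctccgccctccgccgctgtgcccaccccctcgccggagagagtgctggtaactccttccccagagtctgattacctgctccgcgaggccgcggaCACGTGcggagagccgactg
CDK6, chr7:92833910-92834209, minus strand: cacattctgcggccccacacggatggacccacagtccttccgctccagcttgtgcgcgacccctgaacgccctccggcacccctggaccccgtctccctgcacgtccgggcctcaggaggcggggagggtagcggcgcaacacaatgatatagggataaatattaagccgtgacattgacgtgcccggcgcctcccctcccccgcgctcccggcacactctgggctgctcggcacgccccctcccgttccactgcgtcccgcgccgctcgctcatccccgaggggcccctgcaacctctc
CDK4, chr12:57752261-57752560, minus strand: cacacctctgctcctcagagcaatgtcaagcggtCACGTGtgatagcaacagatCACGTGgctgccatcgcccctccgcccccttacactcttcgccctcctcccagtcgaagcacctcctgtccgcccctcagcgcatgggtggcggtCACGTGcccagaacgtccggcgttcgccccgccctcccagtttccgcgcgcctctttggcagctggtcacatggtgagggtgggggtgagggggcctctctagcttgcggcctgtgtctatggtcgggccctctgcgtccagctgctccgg
MYCN, chr2:15940300-15940599, plus strand: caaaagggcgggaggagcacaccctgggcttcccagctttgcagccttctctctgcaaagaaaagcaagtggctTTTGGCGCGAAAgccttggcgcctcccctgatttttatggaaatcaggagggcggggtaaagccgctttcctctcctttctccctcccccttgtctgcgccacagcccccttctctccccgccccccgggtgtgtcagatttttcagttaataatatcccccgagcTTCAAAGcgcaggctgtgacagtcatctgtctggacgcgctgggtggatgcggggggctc

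The first CDK6 window held 1 E-box, at bases 281 to 286, where base 251 is the first transcribed base, and the second held no searched motif. The CDK4 window held 3 E-boxes, starting at bases 35, 55 and 150. Of 35116 windows of the same length, 7.26% held at least 1 E-box and 0.0940% held 3 or more. The MYCN window held 2 overlapping E2F matches on opposite strands, at bases 75 to 86, and 1 TCF/LEF match, on the reverse strand at bases 241 to 247; E2F letters occurred in 1.15% of windows and TCF/LEF letters in 6.86%. The windows of CCND3, MAX and MYCL held none of these letters. These are matches of letters, not measured binding sites.

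On the main CDK6 probe set (BC052264) log2 intensity was 8.16 and 8.11 in control medium, 8.46 and 8.15 in Wnt3a medium, and 9.99 and 9.66 with SET8 shRNA and Wnt3a medium. The 4 control shRNA arrays lay between 8.11 and 8.46, and both SET8 shRNA arrays lay more than 1 log2 unit above them. The other probe set (NM_001259) read 7.23 and 7.89, then 7.54 and 8.04, then 9.37 and 9.63 in the same order, again with no overlap. It was above the array median on 4 arrays, both SET8 shRNA arrays and replicate 2 of each medium.

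Between the shRNAs in Wnt3a medium, CDK6 differed by 1.52 (SE 0.25, 95% interval 0.94 to 2.09) on the main probe set, with an unadjusted p of 0.00039 and an adjusted p of 0.14 in limma. The other probe set gave 1.71 (SE 0.31, interval 0.98 to 2.45), with an adjusted p of 0.18 in limma. Of all probe sets tested, 0.286% and 0.151% had a difference at least as high. Neither value passed the threshold, nor did any other probe set on the array in this comparison, so the background of calls was 0%. In these bulk samples, a change in the share of cells that express a gene and a change in RNA per cell cannot be told apart. Without SET8 shRNA replicate 1 the main probe set gave 1.35, and without replicate 2 it gave 1.68, where the lone remaining array is assumed to vary like the other groups.

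The Wnt3a medium itself did not separate CDK6 from control medium. The difference was 0.18 (SE 0.25, interval -0.40 to 0.75) and 0.23 (SE 0.31, interval -0.51 to 0.96) on the 2 probe sets, and the arrays overlapped on both. Set directly against control shRNA with control medium, the SET8 shRNA arrays were higher by 1.69 (SE 0.25), or 3.23-fold, and by 1.94 (SE 0.31), or 3.84-fold. The adjusted p in limma was 0.064 and 0.087. With only the 4 arrays of this comparison it was 0.024 for the main probe set and 0.022 for the other. Leaving out either Wnt3a medium replicate gives this same fit, because a lone array adds nothing to the spread. Over the other settings with no array left out, apart from a crossed replicate block, the main one ranged from 0.047 to 0.19. Its difference was 1.53 without SET8 shRNA replicate 1 and 1.85 without replicate 2. Both comparisons share the SET8 shRNA arrays.

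Other measures were set beside the CDK6 difference between the shRNAs, and their part in the result was not tested. The 5 blood cell markers, of which HBB and PTPRC were below the array median on all 6 arrays, had a summed log2 intensity of 9.87 to 10.02 with SET8 shRNA against 10.86 to 11.27 in control medium and 11.14 to 11.23 in Wnt3a medium. CD68, HBA1 and HBA2 carry this sum. CD68, the only one above the array median on all 6, read 8.65 and 9.07 with SET8 shRNA against 10.08 and 9.79 for control shRNA in Wnt3a medium. The sum of the 7 fibroblast markers was 12.17 to 12.28 with SET8 shRNA, 12.54 to 12.61 in control medium and 12.60 to 12.80 in Wnt3a medium; COL1A2, LUM and PDGFRB were below the array median on all 6 arrays. COL1A1, the only one above it on all 6, carries this sum. It read 12.18 and 11.99 with SET8 shRNA against 12.70 and 12.48 for control shRNA in Wnt3a medium. COL1A2, COL3A1, DCN, LUM and THY1 overlapped between the shRNAs in Wnt3a medium. PDGFRB was lower on both SET8 shRNA arrays, at 5.04 and 5.52 against 6.09 and 5.63. The 6 HEK293 markers summed to 15.77 to 15.81 with SET8 shRNA and 15.71 to 15.90 on the other arrays. CDK6 is also the only gene of the set whose probe set transcripts span over 200 kb (219 and 229 kb on hg18). Across the 783 tested probe sets with a span of at least 200 kb, the median difference between the shRNAs was 0.04, against 0.01 over all tested and -0.02 over the 8568 with a span under 10 kb.

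CDK4, the other kinase partner, did not share the direction of CDK6. Its main probe set (BC015669; chromosome 12, 56428311 to 56432382, hg18) read 14.72 and 14.48 in control medium, 14.82 and 14.79 in Wnt3a medium, and 14.57 and 14.25 with SET8 shRNA. The Wnt3a medium arrays were the highest and did not overlap either other group. They enter both comparisons, with opposite sign. The difference was 0.21 (SE 0.24) for Wnt3a medium and -0.40 (SE 0.24, interval -0.96 to 0.17) for SET8 shRNA, with adjusted p-values of 0.999994 and 0.86 in limma. The other probe set (NM_000075) gave -0.04 (SE 0.25) and -0.10 (SE 0.25), with overlapping arrays in both comparisons.

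Among the D-type cyclins, CCND1, the form most often tied to Wnt signalling, showed the same small difference on both probe sets in Wnt3a medium. The main one (BC001501; chromosome 11, 69165119 to 69175408, hg18) was at 13.79 and 13.89 on the control medium arrays, at 14.08 and 14.20 on the Wnt3a medium arrays, and at 14.07 and 13.80 on the SET8 shRNA arrays. The other (NM_053056) was at 12.91 and 13.18, at 13.22 and 13.48, and at 13.46 and 13.39. On both probe sets the Wnt3a medium arrays lay above the control medium arrays without overlap, by 0.30 (SE 0.23, interval -0.24 to 0.84) and 0.30 (SE 0.24, interval -0.25 to 0.86), or 1.23-fold. Between the shRNAs the probe sets differed in sign, -0.21 (SE 0.23) and 0.07 (SE 0.24). The interval of the main probe set for Wnt3a medium reaches a ratio of 1.79.

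CCND2, which is induced by mitogens in many cell types, had 3 probe sets that did not move alike. The main one (BC010958; chromosome 12, 4253223 to 4279631, hg18) read 12.61 and 12.85 in control medium, 12.93 and 12.89 in Wnt3a medium, and 13.36 and 12.84 with SET8 shRNA. Its differences were 0.18 (SE 0.26) for Wnt3a medium and 0.19 (SE 0.26) for SET8 shRNA. BC089384, with nearly the same genomic span, read 12.51 and 13.13, then 12.44 and 12.76, then 13.10 and 13.10, so that its Wnt3a difference was of the other sign, -0.22 (SE 0.28), and its SET8 difference was 0.50 (SE 0.28, adjusted p = 0.83 in limma). NM_001759, the longest transcript, read 11.17 and 10.19, then 11.35 and 10.67, then 11.41 and 11.33. The gap of 0.97 between its control medium replicates exceeded both of its differences, 0.33 and 0.36 (SE 0.38 each).

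CCND3, a D-type cyclin with a known part in lymphocyte development, read 12.72 and 12.88 in control medium, 12.77 and 13.14 in Wnt3a medium, and 12.59 and 13.01 with SET8 shRNA on its main probe set (AK055519; chromosome 6, 42010671 to 42017122, hg18). All 3 groups overlapped. The differences were 0.16 (SE 0.27) and -0.15 (SE 0.27), and those of the other probe set (NM_001760) were 0.53 (SE 0.43) and -0.09 (SE 0.43). On that probe set the 2 Wnt3a medium arrays, 12.49 and 11.20, stood 1.29 apart.

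MYC was measured by a single probe set (NM_002467, chromosome 8). It was at 11.68 and 11.41 with control medium, at 11.56 and 11.32 with Wnt3a medium, and at 11.12 and 11.40 with SET8 shRNA and Wnt3a medium. The 2 media overlapped, and so did the 2 shRNAs in Wnt3a medium. The Wnt3a difference was -0.10 (SE 0.25, interval -0.68 to 0.48) and the SET8 difference was -0.18 (SE 0.25, interval -0.76 to 0.40). The intervals span ratios of 0.623 to 1.39 and of 0.589 to 1.32. The SET8 shRNA arrays stood at -0.28 (SE 0.25) against control medium, with both arrays just below the control medium pair and an adjusted p of 0.80 in limma.

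MYCN, the form best known from neural progenitors and neuroblastoma, read 8.94 and 8.27 in control medium, 8.89 and 8.64 in Wnt3a medium, and 9.11 and 9.18 with SET8 shRNA on its main probe set (NM_005378; chromosome 2, 15998133 to 16004580, hg18). Both SET8 shRNA arrays were above the other 4. The difference between the shRNAs was 0.39 (SE 0.29, interval -0.29 to 1.06) and the adjusted p was 0.91 in limma. The other probe set (AF320053), dimmer and above the array median on 4 arrays, gave 0.53 (SE 0.42) with overlapping arrays. For Wnt3a medium the 2 probe sets had opposite signs, 0.16 (SE 0.29) and -0.17 (SE 0.42).

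MYCL encodes L-MYC, first described in lung cancer. All 3 of its probe sets were higher in both Wnt3a medium arrays than in both control medium arrays. On the main one (NM_005376; chromosome 1, 40137872 to 40140274, hg18) log2 intensity was 9.49 and 9.89 in control medium, 10.03 and 10.51 in Wnt3a medium, and 9.89 and 9.54 with SET8 shRNA. The Wnt3a difference was 0.58 (SE 0.29, interval -0.09 to 1.25), with an unadjusted p of 0.079 in limma; leaving out replicate 1 of control medium gave 0.38, and leaving out replicate 2 of Wnt3a medium gave 0.34. BC011864 and NM_001033081 gave 0.52 (SE 0.27) and 0.41 (SE 0.27). Between the shRNAs the 3 probe sets disagreed: -0.56 (SE 0.29) on the main one, where the SET8 shRNA arrays were both lower, -0.33 (SE 0.27) on BC011864 and 0.29 (SE 0.27) on NM_001033081. The mean over the probe sets was at -0.20. The main one was at -0.32 without Wnt3a medium replicate 2, at -0.80 without replicate 1, and at -0.38 without SET8 shRNA replicate 2. NM_001033081, whose transcript spans 6.59 kb against 2.40 and 2.17 kb for the other probe sets, read 8.79 and 8.98, then 9.03 and 9.55, then 9.70 and 9.48 across the groups. The Wnt3a and SET8 comparisons share the Wnt3a medium arrays with opposite sign.

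MAX, the obligate partner of the MYC proteins, was covered by 8 probe sets on chromosome 14. On the main one the replicates of each group differed by more than the group means. This probe set (AY353088; 64613882 to 64638810, hg18) read 11.60 and 10.78 in control medium, 11.66 and 10.78 in Wnt3a medium, and 10.92 and 11.69 with SET8 shRNA. Group means were 11.19, 11.22 and 11.30, so that the differences were 0.03 (SE 0.43) and 0.09 (SE 0.43). On 6 of the 8 MAX probe sets replicate 1 was above replicate 2 in both media and below it with SET8 shRNA. The other two, NM_002382 and BC036092, had replicate 2 above replicate 1 in every group. Over the 8 probe sets the Wnt3a difference ran from -0.15 to 0.21 and the SET8 difference from -0.25 to 0.55. NM_002382 alone had non-overlapping arrays between the shRNAs, 10.22 and 10.64 in Wnt3a medium against 10.73 and 10.80, a difference of 0.34 (SE 0.25, adjusted p = 0.91 in limma). The same sign pattern, replicate 1 higher in both media and lower with SET8 shRNA, was seen on 11 of the 25 probe sets of the set, MYC among them, and the mirror image was seen on both probe sets of CCND1, all 3 of MYCL and BC089384 of CCND2.

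**Figure D2:**
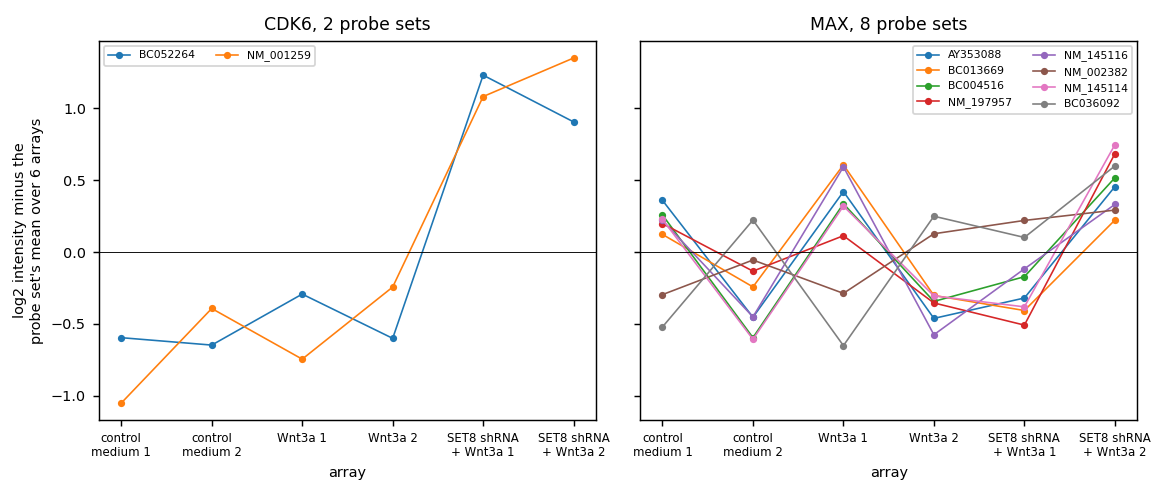
Log2 intensity minus the mean of the probe set over the 6 arrays (vertical axis) on each array (horizontal axis) for the 2 CDK6 probe sets (left) and the 8 MAX probe sets (right). Lines join the arrays of a probe set; CDK6 separates the SET8 shRNA arrays from the rest, whereas 6 MAX probe sets alternate between replicates.

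The Wnt3a comparison asks which members respond to 7 hours of Wnt3a medium. No member was called in limma, against a background of 0%, and the adjusted p was 0.999994 for each of the 25 probe sets. At an unadjusted p under 0.05 there were 0 of 25, where 2.14% of tested probe sets passed, 1.61% higher and 0.529% lower. On the main probe sets 8 of 9 genes had a higher mean in Wnt3a medium, MYC being the exception, with a median difference of 0.18 against 0.02 over all probe sets tested, of which 53.0% were above 0. MAX was at -0.043 with arrays centred on their medians, and MYCN at -0.0056 with the mean over its probe sets. The 2 media did not overlap on 7 of the 25 probe sets, all higher: 3 of MYCL, 2 of CCND1 and the main ones of CCND2 and CDK4. In the background 12.0% were separated upwards and 9.15% downwards. Probe sets of 1 gene measure overlapping transcripts and are not independent.

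The SET8 comparison asks what the SET8 shRNA changes in the presence of Wnt3a medium. Again no member was called in limma. At an unadjusted p under 0.05 the 2 CDK6 probe sets were higher and none was lower, against 3.76% and 3.41% in the background, 7.16% in all. The 9 main probe sets had a median of -0.15, with 4 above 0 and 5 below, and the median over all tested was 0.01. Arrays were separated upwards on 5 of 25 probe sets, against 17.1% of all tested: both of CDK6, BC089384 of CCND2, the main one of MYCN and NM_002382 of MAX. They were separated downwards on 3 of 25, against 17.0%: the main ones of CCND1, CDK4 and MYCL. Apart from CDK6, the share of separated probe sets is near the background.

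**Figure D3:**
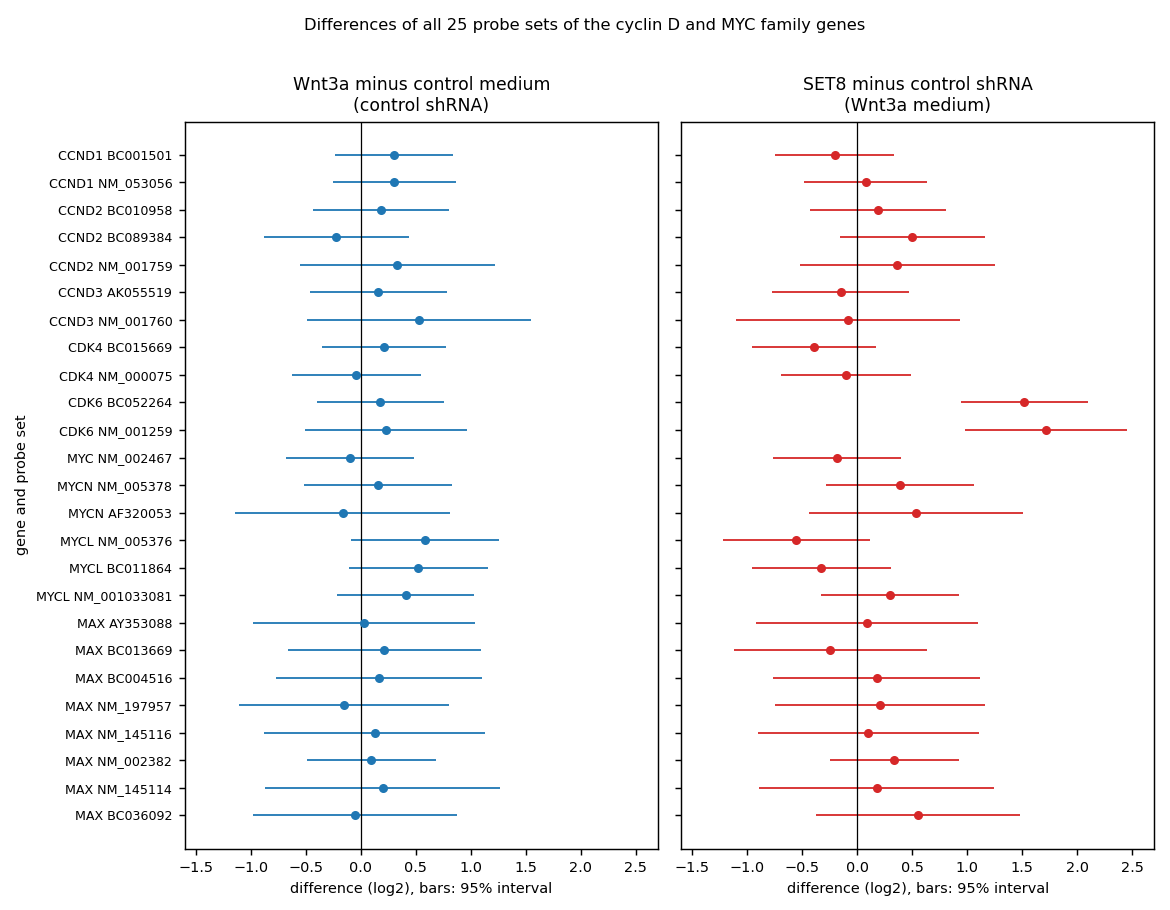
Difference on the log2 scale (horizontal axes) for each of the 25 probe sets (rows), for Wnt3a medium against control medium (left) and SET8 against control shRNA (right). Points are limma estimates from 6 arrays and bars their 95% intervals; the 2 CDK6 intervals on the right, 0.94 to 2.09 and 0.98 to 2.45, are the only ones that leave out 0.

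The third comparison, between the SET8 shRNA arrays and the control medium arrays, joins both differences. Here 0.0504% of tested probe sets were called in limma, 12 in all (0.0252% called as higher), and none was a member. At an unadjusted p under 0.05, where 6.48% of tested probe sets were higher and 4.07% lower, 3 member probe sets were higher: both of CDK6, and NM_001033081 of MYCL (0.70, SE 0.27, adjusted p = 0.41 in limma). None was lower. Arrays were separated upwards on 9 of 25 probe sets and downwards on 2, against 21.5% and 18.2%; the 2 lower ones were MYC and NM_000075 of CDK4. The main probe set of MYCN stood at 0.54 (SE 0.29, adjusted p = 0.60 in limma), with both SET8 shRNA arrays above both control medium arrays.

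**Figure D4:**
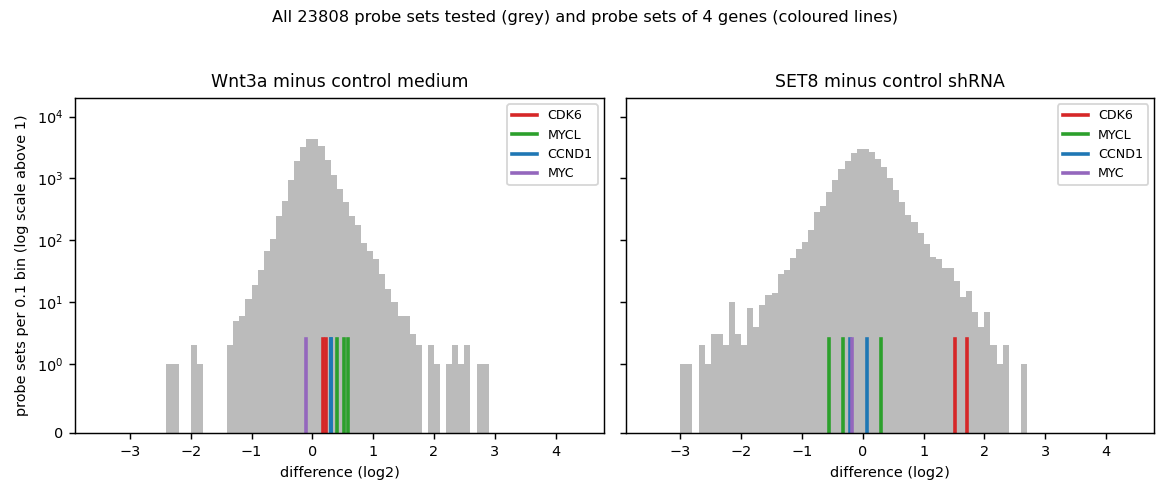
Histogram of the log2 differences of all 23808 tested probe sets (grey; counts on a log axis above 1) for Wnt3a medium against control medium (left) and SET8 against control shRNA (right), with the probe sets of CDK6, MYCL, CCND1 and MYC as coloured lines. On the right the CDK6 lines at 1.52 and 1.71 stand in the upper tail, and the other lines lie between -0.56 and 0.29.

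The genes that surround the cyclin D kinases were examined through lists of other pathway members, each gene by its main probe set, and in none of the 7 lists was a gene called in any of the 3 comparisons in limma. Of the CDK inhibitors 5 of 7 were bright enough to test, and none had an unadjusted p under 0.05. Of all tested probe sets 2.14% did for Wnt3a medium, 7.16% between the shRNAs and 10.6% in the combined comparison. CDKN2C, an inhibitor of CDK4 and CDK6, and CDKN1A, the p53-induced inhibitor, stood at -0.34 (SE 0.24) and -0.28 (SE 0.29) in Wnt3a medium. Between the shRNAs CDKN2A and CDKN2D, inhibitors of the same kinases, stood at -0.32 (SE 0.27) and -0.37 (SE 0.32), with a list median of 0.13. CDKN2B stood at 0.38 (SE 0.32) and CDKN2A at -0.28 (SE 0.27) in the combined comparison.

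Pocket proteins, which are targets of the cyclin D kinases, and E2F factors had 10 of 11 genes tested. The list medians were 0.06 for Wnt3a medium and 0.15 for SET8 shRNA. TFDP2, a dimer partner of E2F factors, read 9.79 and 9.47 in control medium, 10.32 and 10.05 in Wnt3a medium, and 9.50 and 9.68 with SET8 shRNA. It was highest in Wnt3a medium without overlap, with a difference of 0.55 (SE 0.25) from control medium and of -0.59 (SE 0.25) with SET8 shRNA. The latter was the only difference of this list with an unadjusted p under 0.05, where 7.16% of all tested probe sets passed between the shRNAs. Both TFDP2 differences share the Wnt3a medium arrays with opposite sign, and its combined difference was -0.04 (SE 0.25). E2F1 stood at -0.40 (SE 0.23) in Wnt3a medium and TFDP1 at 0.70 (SE 0.34) with SET8 shRNA. In the combined comparison TFDP1 stood at 0.69 (SE 0.34) and RBL2, above the array median on only 2 arrays, at -0.68 (SE 0.50).

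Of the other G1/S cyclins and E2F target genes 17 of 18 were tested, with a median of -0.04 for Wnt3a medium and 0.14 for SET8 shRNA. CCNE1, the cyclin that follows the D types and activates CDK2, read 11.96 and 11.56, then 12.09 and 11.48, then 10.97 and 11.15, and stood with SET8 shRNA at -0.73 (SE 0.29, adjusted p = 0.66 in limma). RRM2, a subunit of ribonucleotide reductase, stood at -0.60 (SE 0.26) between the shRNAs and at -0.88 (SE 0.26) in the combined comparison. In Wnt3a medium RRM2 stood at -0.28 (SE 0.26) and CDC25A, a phosphatase that activates cyclin-dependent kinases, at -0.26 (SE 0.24). These were the smallest p-values of the list, and 1 gene between the shRNAs and 2 in the combined comparison had an unadjusted p under 0.05, where 7.16% and 10.6% of all tested probe sets did.

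The list of genes that act in turnover of cyclin D and MYC proteins had 9 of 13 tested, with medians of 0.10 and -0.05. GSK3B, the kinase that marks cyclin D1, MYC and beta-catenin for degradation, read 12.24 and 12.22 in control medium, 12.11 and 12.20 in Wnt3a medium, and 11.62 and 11.71 with SET8 shRNA. The SET8 shRNA arrays were below the other 4, at -0.49 (SE 0.22, adjusted p = 0.72 in limma) against Wnt3a medium and at -0.57 (SE 0.22) against control medium. SKP2, the F-box protein of a ubiquitin ligase, stood at 0.50 (SE 0.32) in Wnt3a medium and 0.86 (SE 0.32) in the combined comparison, and AMBRA1, a receptor for the degradation of D-type cyclins, at -0.28 (SE 0.31) in Wnt3a medium.

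Around MAX, all 9 other network factors were tested, with medians of -0.07 and -0.03. MXD1, which competes with MYC for MAX and represses transcription, read 8.41 and 8.30 in control medium, 7.87 and 7.97 in Wnt3a medium, and 7.05 and 7.37 with SET8 shRNA. The 3 groups did not overlap. Differences were -0.43 (SE 0.23) for Wnt3a medium and -0.72 (SE 0.23, adjusted p = 0.51 in limma) for SET8 shRNA. For both together the difference was -1.15 (SE 0.23, adjusted p = 0.13 in limma). MXD1 was above the array median on 4 arrays and below it on both SET8 shRNA arrays, so it passed the filter only through the control shRNA arrays. MLX, a partner of the MXD and MLXIP proteins, stood at 0.35 (SE 0.22) in Wnt3a medium. MLXIPL, a glucose-sensing factor, stood at 0.62 (SE 0.23) between the shRNAs and 0.42 (SE 0.23) in the combined comparison.

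All 11 MYC cofactors were tested, with medians of 0.05 and 0.0049. MYCBP, a small protein that binds the MYC amino terminus, had the lowest value of the lists between the shRNAs. It read 11.77 and 11.60 in control medium, 11.96 and 11.51 in Wnt3a medium, and 10.32 and 10.54 with SET8 shRNA, where both arrays were below the other 4. The difference was -1.30 (SE 0.26), or 2.46-fold lower, with an unadjusted p of 0.0013 and an adjusted p of 0.20 in limma; in the combined comparison it was -1.25 (SE 0.26, adjusted p = 0.13 in limma). KAT5, an acetyltransferase, stood at -0.37 (SE 0.24) in Wnt3a medium and 0.44 (SE 0.24) between the shRNAs. Both KAT5 differences share the Wnt3a medium arrays with opposite sign, and its combined difference was 0.07 (SE 0.24). RUVBL2 stood at 0.20 (SE 0.22) in Wnt3a medium and BIN1 at -0.59 (SE 0.37) in the combined comparison.

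The list of MYC target genes, which include genes of ribosome, nucleotide and polyamine synthesis, had 25 of 26 members tested, with medians of 0.06 for Wnt3a medium, -0.06 for SET8 shRNA and 0.05 for the combined comparison. NOLC1, a nucleolar phosphoprotein, read 11.72 and 11.59, then 11.65 and 11.64, then 12.13 and 12.49, and was the only gene of the list with an unadjusted p under 0.05, at 0.67 (SE 0.24) between the shRNAs and 0.65 (SE 0.24) in the combined comparison. Of all tested probe sets 7.16% and 10.6% passed that threshold in these comparisons. RRS1, a ribosome assembly factor, stood at -0.42 (SE 0.25) between the shRNAs, with both arrays lower. In Wnt3a medium EIF4A1 stood at 0.32 (SE 0.23) and NOP58 at 0.38 (SE 0.28). EIF4E stood at 1.10 (SE 0.54) in the combined comparison, with control medium arrays at 8.70 and 6.95.

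The genes most like a member were those with the highest Pearson correlation over the 6 arrays, among 13070 other genes with a tested probe set. For CDK6 these were COPG2 (0.994), RSAD1 (0.992) and CERS1 (0.990). RSAD1 read 10.74 and 10.73, then 10.85 and 10.85, then 11.52 and 11.41, a smaller step than that of CDK6. For CCND1 they were GPRC5B (0.972), SEPTIN4 (0.967) and KIF5C (0.966), and for MYC they were SND1 (0.995), RPRM (0.990) and RASA4CP (0.988). With 6 arrays that share labels and replicate numbers, correlations of this size are given as a description.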

How the data were processed

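Total RNA of HEK293 cells was labelled with Cy3 and hybridised to 6 NimbleGen 1-colour arrays, per the labels' protocols. The authors deposited linear intensity values, 1 for each probe set of an array, made with RMA per the submitters' processing notes. RMA corrects background, normalizes between arrays and summarises probes; its settings are not given in the sources used here. A series table held identical intensities (largest difference 0). Of 45033 probe sets 45031 have 3 probes; positions refer to hg18 per the file headers. Symbols were updated through Entrez IDs (86.4% matched).

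Log2 was taken of these intensities without an offset. Probe sets above the array median on at least 2 of 6 arrays were tested (23808) with limma 3.58.1 in R 4.3.3: 3 group means, all 6 arrays, 3 residual and 4.32 prior degrees of freedom, two-sided, Benjamini-Hochberg over all tested. The code was tested on simulated arrays. With 2 arrays per group, their number limits the precision; a single comparison of 2 against 2 cannot reach an exact permutation p under 0.333, so none was run. Promoter sequences are from RefSeq.

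Genes named beyond the members are, per list and comparison, those called or else the 2 smallest p-values, 6 check genes, and the 3 genes most correlated with CCND1, MYC and any member whose group means span 1 log2 unit. A gene that this rule names is not reported here. Members and lists were chosen with earlier results of these data known. Alternatives changed the filter, spread prior, centring, offset, arrays, replicate block and probe summary.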

Additional observations from a re-analysis of the deposited data

How the results depend on the processing

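CDK6 was above 0 in every setting run of the SET8 and the combined comparison, on both probe sets. The filter, trend and block settings leave this estimate unchanged, so they could not alter its sign. Leaving out an array could not either, since both SET8 shRNA arrays lay above the other 4. The number of probe sets called over the whole array depended on the settings. With 0 calls for Wnt3a medium, the count was 2 with a filter at the 60th percentile, 2 with an intensity trend and 2 with an offset of 50. For SET8 shRNA, also 0, it was 15 with the trend, 28 with the 4 arrays of the comparison alone, and 0 to 28 when leaving out an array, with 28 without either control medium replicate. The 12 calls of the combined comparison became 0 with no filter, 52 at the 60th percentile, 31 with the trend, 56 with the offset, 230 with 4 arrays, 49 with the mean over probe sets of a gene, and 0 to 230 when leaving out an array: 22 and 5 without control medium replicates 1 and 2, 230 without either Wnt3a medium replicate and 0 without either SET8 shRNA replicate. In an arm left with 1 array, that array is assumed to vary like the others. Leaving out an array of the group outside a comparison gives the same fit as the 4 arrays of that comparison, so 28 and 230 recur. CDK6 differences between the shRNAs ran from 1.35 to 1.68 on the main probe set over all settings, with limma adjusted p-values from 0.094 to 0.999906 over the settings other than the crossed block described last, and 0.065 with the mean over its probe sets. In the combined comparison the main CDK6 probe set was called at the 60th percentile (adjusted p = 0.047 in limma) and with 4 arrays (0.024). The other probe set was called with 4 arrays (0.022), and CDK6 was called with the mean over probe sets (0.036). With no array left out, the adjusted p of the main probe set was at most 0.19 in limma.

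Small differences changed sign in some settings; the cause was not tested. With each array centred on its median, MAX was at -0.043 for Wnt3a medium, and CCND3 and MYCL at -0.082 and -0.062 in the combined comparison. With the mean over probe sets, MYCN was at -0.0056 for Wnt3a medium. Leaving out an array, Wnt3a differences ran from -0.031 to 0.35 for CCND3, -0.24 to 0.037 for MYC, -0.18 to 0.49 for MYCN and -0.41 to 0.47 for MAX. SET8 differences ran from -0.070 to 0.45 for CCND2, -0.36 to 0.059 for CCND3 and -0.35 to 0.53 for MAX. Combined differences ran from -0.037 to 0.22 for CCND1, -0.20 to 0.22 for CCND3, -0.17 to 0.23 for MYCL and -0.29 to 0.52 for MAX.

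The groups share only 2 replicate numbers, which does not establish pairing. Deviations of same-numbered arrays correlated at 0.75 between the media and at -0.29 between SET8 shRNA and each medium. With the replicate number as a block the counts were 0, 0 and 0 for Wnt3a medium, SET8 shRNA and the combined comparison. In a block with the SET8 shRNA numbers crossed, chosen after seeing the data, the counts were 3, 182 and 792, with 0, 2 and 2 member probe sets among them.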
